A study of Mus musculus with 4 samples.

Results

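Dermal fibroblasts without Rbpj deletion were compared between the in vitro and the in vivo experiment of a study on this gene, whose product carries the signal of Notch receptors to their target genes. The comparison rests on 2 of the 4 arrays of the series, 1 a side, chosen by their titles: the Adeno GFP in vitro array and the RBP loxp-loxp in vivo array. A difference is the normalized log2 signal in vitro minus the normalized log2 signal in vivo, so that 1 stands for 2-fold higher in vitro. It was taken for 10916 genes, those of 18194 measured genes whose mean signal over the 4 arrays reached the 40th percentile, 5.28 on the log2 scale.

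The in vitro control was fibroblasts that received an adenovirus with GFP, and the in vivo control was fibroblasts of mice with the loxP-flanked RBP alleles and no Cre. The other pair was used as a repeat on arrays of its own: fibroblasts given Adeno Cre in vitro, and fibroblasts of ColI Cre x RBP loxp-loxp mice, in which a Cre named for collagen I acts in the animal. All 4 are labelled C57BL/6 mouse fibroblasts, and poly(A) RNA was hybridized as biotin-labelled cRNA. The labels do not give the Rbpj alleles of the cells that received GFP, the age of the mice, the body site, how many animals were pooled, or whether the cells named in vivo were grown before RNA was taken. The in vitro and in vivo experiment, the presence of an adenovirus and everything else that went with each experiment form a single split of the arrays, so they cannot be told apart.

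With 1 array a side there are no replicates, the number of arrays limits the precision, and no p-value exists for the control difference itself. A p-value given here comes from a limma fit over all 4 arrays with terms for in vitro or in vivo and for deletion, and is adjusted by the Benjamini-Hochberg method over the 10916 genes. That fit leaves 1 residual degree of freedom per gene, the disagreement between the control and the deleted difference. "Rose" and "fell" are used for genes with an adjusted p under 0.05 in it, as in vitro against in vivo. Its calls depend strongly on the genes entered: with no filter on signal it called 0 genes in either direction, although 5426 genes then had an unadjusted p under 0.05.

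Fibroblasts build the collagen and proteoglycan matrix of the dermis, and they are known to change their gene expression when they leave tissue for a plastic dish. Cells also carry sensors for foreign nucleic acid, such as a viral genome, that lead to secretion of type I interferon. Interferon receptors then activate transcription factors that bind a short DNA element, the interferon-stimulated response element or ISRE, in the promoters of antiviral genes.

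Interferon-stimulated genes were the list with the highest median among those with at least 5 genes analysed, and 5 of their promoters are printed with the ISRE letters (GAAA, any 2 bases, then GAAA again, on either strand) in capitals. The stretches are RefSeq sequence of GRCm38.p6, 5′ to 3′ on the strand of the gene: Ifit1 at chr19:34640760-34640819 on the plus strand, Ifit3 at chr19:34583348-34583407 on the plus strand, Rsad2 at chr12:26456538-26456597 on the minus strand, Gbp3 at chr3:142559974-142560033 on the plus strand and Gbp2 at chr3:142620579-142620638 on the plus strand.
Ifit1: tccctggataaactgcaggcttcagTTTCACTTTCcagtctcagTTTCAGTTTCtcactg
Ifit3: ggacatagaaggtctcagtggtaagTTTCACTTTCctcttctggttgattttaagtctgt
Rsad2: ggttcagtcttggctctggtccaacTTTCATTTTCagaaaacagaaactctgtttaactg
Gbp3: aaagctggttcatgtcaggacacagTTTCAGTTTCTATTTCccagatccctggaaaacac
Gbp2: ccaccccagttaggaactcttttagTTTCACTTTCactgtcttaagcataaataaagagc

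Within the window from 250 bases before to 50 bases after the gene start, these letters occurred in 10 of the 18 promoters found for interferon-stimulated genes analysed, or 55.6%. They occurred in 3.50% of the 8829 promoters found for all genes analysed and in 3.99% of all 27025 promoters in the table. Among genes at least 2-fold higher in vitro in both pairs, 35 of 342 promoters held them (10.2%), against 9 of 209 for genes at least 2-fold lower in both (4.31%). The higher genes include 18 of the interferon-stimulated list. The ISRE was not alone in this: AP-1 letters (TGANTCA) were in 14.0% of the 342 and the TATA box (TATAAA) in 17.5%. Those shares were 5.89% and 8.63% for all genes analysed. E2F letters were in 2.63%, beside 3.52%. A match describes letters in this window and says nothing of binding.

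Mitotic genes, which were lower in vitro on the whole list, are known for another element, the cell cycle genes homology region or CHR, through which the DREAM complex and B-Myb act. Part of 3 such promoters follows, with the CHR letters TTTGAA, on either strand, in capitals: Ccnb2 at chr9:70421691-70421746 on the minus strand, Ube2c at chr2:164769875-164769930 on the plus strand and Cdk1 at chr10:69352953-69353008 on the minus strand.
Ccnb2: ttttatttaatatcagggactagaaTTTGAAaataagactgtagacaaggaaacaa
Ube2c: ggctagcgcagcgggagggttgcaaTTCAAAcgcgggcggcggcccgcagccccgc
Cdk1: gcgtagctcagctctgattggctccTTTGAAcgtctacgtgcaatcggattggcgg

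The CHR letters were in 15 of the 19 mitotic promoters found (78.9%), 2 of 20 DNA replication promoters and 13.76% of the promoters of all genes analysed. The CCAAT box, searched as CCAAT on either strand, was in 17 of the 19 mitotic promoters (89.5%) and in 14 of 14 promoters of cholesterol genes, beside 42.5% of those of all genes analysed.

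Across all genes analysed the control difference was centred near 0, with a median of -0.01 and a standard deviation over genes of 0.68. By the 2-fold threshold 635 genes, or 5.82%, were higher in vitro and 496, or 4.54%, were lower, together 10.4%. Of these 1131 genes 56.1% were higher in vitro. With the values used as deposited, where the median gene lay 0.13 higher in vitro, 891 genes were higher and 359 lower by 2-fold, so that 71.3% of that set were higher. The large differences lay more often on the higher side: an 8-fold threshold left 46 genes higher and 7 lower. For 166 of the 635 higher genes the in vivo signal was under the level cutoff of 5.28, and for 84 of the 496 lower genes the in vitro signal was, so that their folds rest on a dim signal on one side.

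The deleted arrays gave the same comparison on other arrays. There 1076 genes (9.86%) passed 2-fold upwards in vitro and 876 (8.02%) downwards. Of the 635 genes higher in the control pair, 594 were above 0 in the deleted pair and 435 at least 2-fold higher. Of the 496 lower genes, 459 were below 0 there and 277 at least 2-fold lower. Those at least 2-fold different in both pairs were 3.98% of the genes analysed for higher and 2.54% for lower. The correlation of the control and deleted differences across genes, which are not independent of each other, was r = 0.681. Deleted against control arrays were 2-fold apart for fewer genes, 211 (1.93%) in vitro and 723 (6.62%) in vivo. The limma fit called 302 genes that rose in vitro (2.77%) and 147 that fell (1.35%). All of these were also at least 2-fold different in the control pair, which the fit uses.

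**Figure D1:**
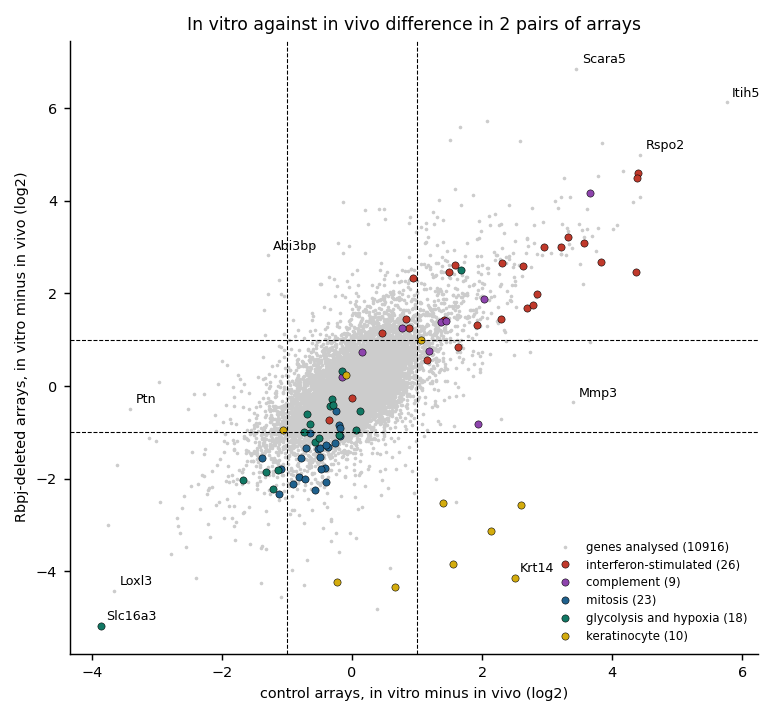
Each grey point is 1 of 10916 genes, plotted by its in vitro minus in vivo difference (log2) on the control arrays (horizontal) and on the Rbpj-deleted arrays (vertical); dashed lines mark 2-fold and coloured points are genes of 5 lists. Interferon-stimulated and complement genes lie mainly at the upper right, mitosis and glycolysis genes at the lower left, and 5 of the 6 keratinocyte genes at least 2-fold higher in the control pair, such as Krt14 (2.50 and -4.13), lie at the lower right.

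Several properties of the arrays differed as well, some along the in vitro and in vivo split and some on the in vitro control array alone. They may bear on any value given here. After quantile normalization, the BioB hybridization control probe sets averaged 8.29 and 8.28 (log2) on the in vitro control and deleted arrays. The in vivo arrays averaged 7.08 and 7.06 in the same order. The 3′ probe set of Pcx exceeded its 5′ probe set by 3.16 on the in vitro control, 1.10 on the in vivo control, 2.01 on the in vitro deleted and 0.83 on the in vivo deleted array. For Gapdh the in vitro control, at 1.003, stood apart from the other 3 arrays, at 0.02 to 0.14, while Tfrc went the other way between the controls, 0.96 against 1.25. Among the 2726 longest genes 259 were 2-fold or more higher and 121 lower, and among the 2726 shortest 122 and 145. Over 10904 genes with a known length the rank correlation of length with the control difference was 0.116. The part of RNA integrity, labelling and hybridization in the results was not tested.

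**Figure D2:**
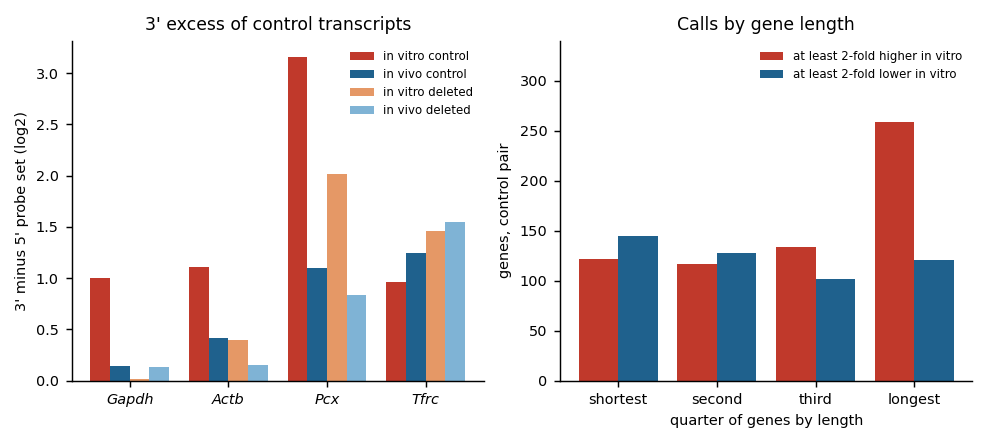
Left, the log2 excess of the 3′ over the 5′ probe set of 4 transcripts on each array; right, genes 2-fold or more higher or lower in vitro in the control pair, for 4 equal sets of 2726 genes by gene length. The in vitro control has the tallest bar for Gapdh, Actb and Pcx (1.003, 1.11 and 3.16), and the longest genes have 259 higher against 121 lower.

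Rbpj itself did not separate the controls by as much as 2-fold. Its probe set brightest on average over the 4 arrays read 8.58 in vitro and 8.61 in vivo, a difference of -0.03, and the other probe sets differed by -0.39 and -0.78. On the deleted arrays that probe set read 7.48 in vitro and 8.51 in vivo, the latter beside 8.61 in its control. The other probe sets read 8.19 on the in vivo deleted array against 9.02 in its control, and 6.60 against 7.09. In vitro they read 7.29 on the deleted array against 8.63 in its control, and 6.404 against 6.307. Whether each probe set lies in the deleted part of the gene is not known here. None of the 11 Notch pathway genes analysed, receptors, ligands and targets, was 2-fold different between the controls, beside 10.4% of all genes. With so few genes, that count lies near the share over all genes. Their median was -0.12, the target Hes1 differed by -0.46 and the ligand Dll4 by -0.92.

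The labelled cell type was checked against its markers. All 18 fibroblast identity genes passed the filter, and their signals ran from 7.65 to 13.6 on the in vitro control and from 7.42 to 13.6 on the in vivo control. Collagen I chains read close to each other, Col1a1 at 13.55 and 13.57 and Col1a2 at 13.57 and 13.63. Quantile normalization gives the brightest probe sets nearly the same values on every array, so it could hide a difference here. The 3 probe sets of Col1a2 ranged from -0.85 to 0.05 in the control pair and from -1.80 to 0.40 in the deleted pair. Of the list, Dpt and Lum, both matrix proteins that bind collagen, rose, none fell, and the median was 0.09. Fbln1, the matrix protein fibulin 1, was at least 2-fold lower, 8.29 against 10.08 (limma adjusted p = 0.084). In bulk RNA, fewer cells of a type and less RNA per cell cannot be told apart.

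Markers of other cell types were mostly dim, except for adipocyte genes (median level 8.77 in vitro and 7.27 in vivo), which are described with the lipid genes. Of the 12 endothelial markers 5 passed the filter and 5 were under the cutoff on every array, the 7 not analysed including Pecam1 and Cdh5. No red blood cell marker passed. Of 16 macrophage and myeloid markers 7 passed, with a median of 0.97 against -0.01 for all genes. The lysosomal protease Ctss (6.98 in vitro, 5.06 in vivo) and Cd68 (6.16 and 4.58) rose. Csf1r (6.87 and 7.20) and Cd14 (5.68 and 5.92) were the 2 of the 7 below 0. The probe sets of Csf1r ranged from -0.32 to 1.08. Ptprc, Adgre1, Itgam and the C1q chains did not pass the filter. The summed signal of the measured myeloid markers was 10.2 on the in vitro control and 9.58 on the in vivo control, on the log2 scale. Their part in the interferon and complement results was not tested.

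Keratinocyte markers separated the controls, and in the opposite direction from the deleted pair. Of 17 markers measured 10 passed. Of these, 6 were at least 2-fold higher in vitro and 1 lower, beside 5.82% and 4.54% of all genes. The list median was 1.23 in the control pair and -2.85 in the deleted pair. Krt14, the basal layer keratin, read 8.43 on the in vitro control, 5.93 on the in vivo control, 6.80 on the in vitro deleted and 10.94 on the in vivo deleted array. Krt5, its partner, read 8.17, 6.04, 7.14 and 10.28 in the same order. The in vivo deleted array was highest and the in vivo control lowest for both genes. No keratinocyte marker passed the limma threshold. Summed over the list, the signal was 10.5 on the in vitro control, 9.77 on the in vivo control and 12.9 on the in vivo deleted array. Of 12 skeletal muscle markers analysed, 2 had a control difference above 0, beside 49.5% of all genes. The list median was -0.71 in the control pair and -2.42 in the deleted pair. In the deleted pair 10 of 12 were at least 2-fold lower in vitro, beside 8.02% of all genes. Skeletal actin, Acta1, read 7.97 on the in vivo control and 10.06 on the in vivo deleted array. The fast troponin Tnni2 fell (4.92 against 6.13), while the fast myosin Myh2 rose (6.34 against 4.71). The part of muscle RNA in these calls was not tested.

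Transcripts linked to sex differed too. Xist, the RNA that silences an X chromosome, was bright on all 4 arrays, with 9.35 (control) and 8.62 (deleted) in vitro, 10.60 and 10.18 in vivo, and it fell (log2 difference over the arrays -1.40, SE 0.21, adjusted p = 0.045 by limma). Y-linked Eif2s3y read 5.97 and 5.70 in vitro and 3.75 and 3.94 in vivo, and Kdm5d 4.58 and 5.25 against 3.37 and 3.76. Both Y-linked genes were under the filter, so they were not tested. The sex of the mice is not given in the labels.

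The 15 genes furthest higher in vitro among those whose probe sets share a direction all rose. These 15, like the furthest lower genes and those chosen on both pairs below, were picked by differences that enter the fit. Its p-values are therefore no separate support for them. Itih5, a hyaluronan-associated inter-alpha-trypsin inhibitor heavy chain, read 9.99 on the in vitro control and 4.23 on the in vivo control, a 54.1-fold difference, and 10.35 and 4.22 on the deleted arrays. Its groups lay far apart, with the in vivo arrays under the level cutoff. The fitted difference was 5.94 (SE 0.22, limma adjusted p = 0.015). With 15.4 added to the linear signal before the log it was 4.92 in the control pair, and 3.99 as the median of its probe sets.

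Rspo2, a secreted R-spondin that amplifies Wnt signalling, read 8.77 against 4.33 in the controls and 9.0 against 4.01 in the deleted pair. Its control difference of 4.43 came down to 1.90 as a median over its probe sets. Hmcn1, the matrix protein hemicentin, read 8.10 against 3.94, and Limch1, a regulator of non-muscle myosin, 9.30 against 4.99. Sema3d, a secreted guidance cue, read 8.08 against 4.25 and 8.67 against 3.42 in the deleted pair. Each of the 3, like Rspo2, had signals under the cutoff on both in vivo arrays.

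Further genes of this set were Ramp1, a subunit of the CGRP receptor (9.70 against 5.69), the adhesion molecule Nrcam (7.83 against 4.06), Fgf13, an FGF family protein that stays inside the cell (8.19 against 4.44), and Cd34, a surface sialomucin of dermal fibroblasts (8.96 against 5.18). Cd34 read 9.01 against 4.48 in the deleted pair, and its in vivo signals, like those of Nrcam, were under the level cutoff. Fgf13 was under it on the in vivo control. The aldehyde dehydrogenase Aldh1a7 (8.31 against 4.24) and the aldo-keto reductase Akr1cl (9.08 against 4.66) have close relatives in the genome, so which copy gave the signal is uncertain. Both were also under the cutoff on both in vivo arrays. The remaining 4 are interferon-stimulated genes. By the smaller of the 2 pair differences, the cartilage matrix protein Cilp (3.61 and 3.83) and the proprotein convertase Pcsk6 (3.50 and 3.51) also stood among the first 12. Both rose, and Cilp was under the cutoff on both in vivo arrays.

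At the other end Slc16a3, the lactate exporter MCT4, read 5.41 on the in vitro control and 9.27 on the in vivo control, 14.5-fold lower in vitro, and 5.25 and 10.42 on the deleted arrays. It fell by 4.51 in the fit (SE 0.36, limma adjusted p = 0.017). Loxl3, a lysyl oxidase-like enzyme of matrix cross-linking, read 6.46 against 10.11 and fell by 4.04 (SE 0.27). Gjb2, the gap junction protein connexin 26, read 5.06 against 8.81 and fell by 3.38 (SE 0.27). In all 3 genes both in vitro arrays were below both in vivo arrays.

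The set of 15 furthest lower genes also held 2 proteins of focal adhesions. Fblim1, or migfilin, read 6.66 against 9.62, and Tes, or testin, 6.66 against 9.34. The transcription factor Bnc2 read 6.53 against 9.32, the tubulin Tubb3 5.64 against 8.28, the RNA editing enzyme Adarb1 5.60 against 8.22 and the flavin monooxygenase Fmo2 5.81 against 8.39. These 6 genes fell, as did Snai1, a repressor known for its part in epithelial to mesenchymal transition (7.24 against 9.79), and the tenascin Tnn (6.05 against 8.44), which were chosen on both pairs.

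Not every large control difference was matched in the deleted pair. Mamdc2 (5.06 against 8.68), the unconventional myosin Myo7a (5.61 against 8.73) and the secreted Wnt antagonist Sfrp1 (8.26 against 11.26) were lower in both pairs but did not pass the threshold, with limma adjusted p = 0.060, 0.087 and 0.080. Ptn, the growth factor pleiotrophin, read 8.07 in vitro and 11.49 in vivo in the controls and 7.95 and 8.44 in the deleted pair (limma adjusted p = 0.160). The chloride channel accessory protein Clca3a1 read 5.42 against 8.40, then 5.37 against 5.29. For both genes the in vivo control array alone was high.

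**Figure D3:**
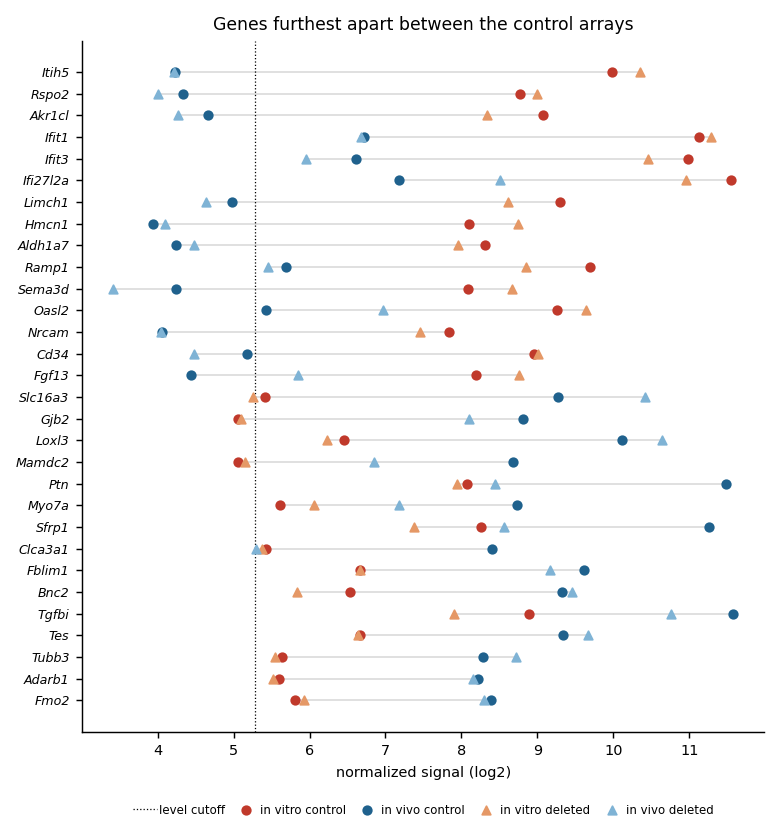
Normalized log2 signal on the 4 arrays for the 15 genes furthest higher and the 15 furthest lower in vitro in the control pair, with circles for controls, triangles for deleted arrays and a dotted line at the level cutoff. Itih5 reads 9.99 and 10.35 in vitro against 4.23 and 4.22 in vivo; for Ptn the in vivo control, at 11.49, lies apart from the other 3 arrays, at 7.95 to 8.44.

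Other genes chosen because only the control pair separated them (under 0.5 either way in the deleted pair, with no test of the difference) included Mmp3, the protease stromelysin. It read 8.34 in vitro and 4.94 in vivo in the controls, and 7.32 and 7.66 in the deleted pair. Rgs2, a brake on G protein signalling, read 8.01 and 6.04, then 7.07 and 6.71. Its 3 probe sets ranged from 1.96 to 3.11 in the control pair and from 0.36 to 1.90 in the deleted pair. For Rgs2 the separation by the control pair alone therefore holds for the probe set used, not for all of them. On the lower side were F3, or tissue factor, at 8.42 against 10.69 and 8.60 against 8.77, the aldolase Aldoc at 4.90 against 7.33 and 4.64 against 4.81, the secreted lectin Clec11a at 5.73 against 8.25 and 5.63 against 6.12, and mitochondrially encoded ND5 at 10.17 against 12.23 and 12.41 against 12.36. Of ND5 the in vitro control was the low array, and of F3, Aldoc and Clec11a the in vivo control was the high one.

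Interferon-stimulated genes were higher in vitro as a list. Of 26 analysed, 20 differed 2-fold or more upwards and none downwards in the control pair, where 5.82% of all genes were that much higher. A positive difference was found for 24 of them, beside 49.5% of all genes. The median was 2.29 in the control pair and 2.16 in the deleted pair, and 18 rose. When each gene was given its probe sets' median instead of the brightest one, the list median was 1.62.

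The effectors come first. Ifit1, which binds foreign RNA, read 11.12 in vitro and 6.72 in vivo in the controls and 11.28 and 6.68 in the deleted pair, and rose by 4.50 (SE 0.21, limma adjusted p = 0.015). Ifit3 read 10.98 against 6.61, and Rsad2, or viperin, 9.08 against 5.51. Both in vitro arrays were above both in vivo arrays for each of them. Ifi27l2a read 11.55 and 7.18 in the controls, with the in vivo deleted array higher, at 8.51. The 2′-5′ oligoadenylate synthetase family was represented by Oasl2 (9.26 against 5.43), Oasl1 (7.71 against 5.41) and Oas1a (9.83 against 7.54). The GTPases Gbp3 (8.89 against 5.58), Gbp2 (8.33 against 6.84) and Mx2 (6.42 against 5.01) and the tethering protein Bst2 (10.02 against 8.10) rose as well.

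Sensors and regulators of the response were among the genes that rose. Ifih1, the double-stranded RNA sensor MDA5, read 9.70 against 6.49, and its relative Dhx58, or LGP2, 7.87 against 5.18. Irf7, the transcription factor that raises interferon production, read 10.03 against 7.07, and Usp18, which restrains the receptor, 9.48 against 6.85. All 4 rose. Ddx58, the sensor RIG-I, read 9.64 against 8.81, a difference of 0.83 that did not pass (limma adjusted p = 0.078). Stat2 and Irf9, parts of the complex that binds the ISRE, differed by 0.94 and 0.46 (limma adjusted p = 0.084 and 0.129). Irf1 and Ifi27 were not higher in vitro, at -0.36 and -0.01. The chemokine Cxcl10 (8.0 against 4.94), a known interferon target outside the list, and Ifi204 (7.52 against 5.08), a DNA-binding protein of the interferon-inducible p200 family, also rose.

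**Figure D4:**
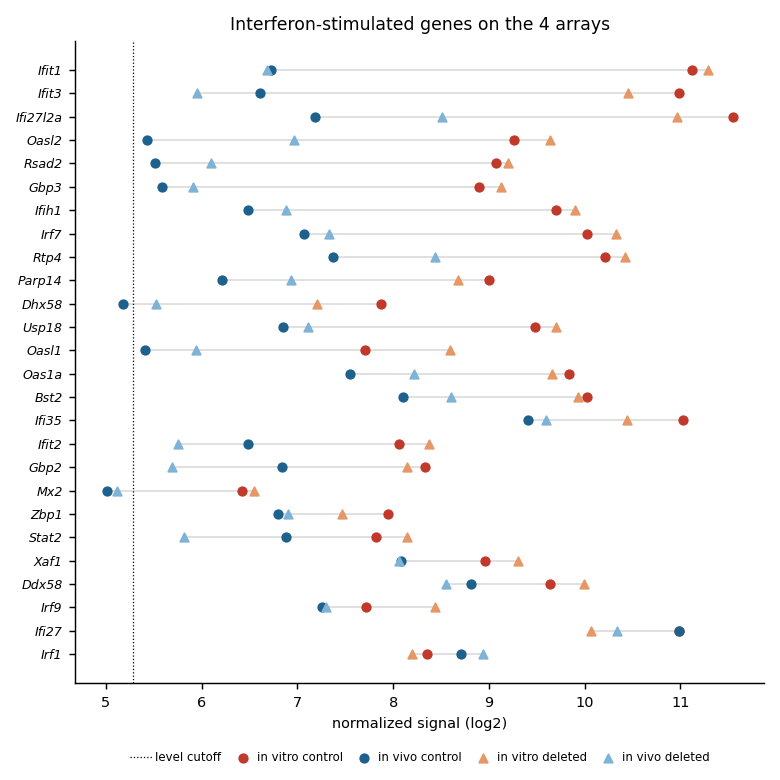
Normalized log2 signal of the 26 interferon-stimulated genes analysed on the 4 arrays, ordered by the control difference, with the level cutoff dotted. From Ifit1 at the top (11.12 against 6.72) down to Mx2 both in vitro arrays lie to the right of both in vivo arrays, and Irf1 at the bottom (8.36 against 8.71) does not.

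Genes of MHC class I antigen presentation, also known interferon targets, were above 0 in 10 of 10 cases. At least 2-fold higher were 7 of them, beside 5.82% of all genes. The median was 1.22, against 0.73 in the deleted pair. The peptide transporter Tap1 rose, 8.65 against 7.31. Erap1, the peptide trimming enzyme, read 7.18 against 5.32 (limma adjusted p = 0.089). The immunoproteasome subunit Psmb8 read 9.23 against 7.75 in the controls and 8.49 against 8.71 in the deleted pair. The heavy chains H2-D1 and H2-K1 differed by 1.34 and 1.21, with probe sets that could read related class I genes.

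Complement genes were higher in vitro in 8 of 9 cases, and 6 passed 2-fold, beside 5.82% of all genes. The median was 1.37, and 1.25 in the deleted pair. Cd55, the decay-accelerating factor that shields cells from complement, read 7.96 against 4.31 and rose. So did the C1 inhibitor Serping1 (11.32 against 9.29), the lectin pathway protease Masp1 (7.34 against 5.89) and C1ra (9.78 against 8.41). Factor B, Cfb, read 7.74 against 5.80 in the controls and 7.45 against 8.27 in the deleted pair. Of the NF-kB and acute phase genes the inhibitor Tnfaip3 (6.32 against 4.31) and the adhesion molecule Icam1 (8.13 against 6.21) rose, the 2 probe sets of Tnfaip3 differing in direction, at 2.00 and -0.54. The list median was 0.56 in the control pair and -0.38 in the deleted pair. Of 19 cytokines and chemokines, 2 were at least 2-fold higher and 2 lower, beside 5.82% and 4.54% of all genes. The 2 lower ones, Cx3cl1 (5.84 against 8.14) and Cxcl14 (6.54 against 7.99), fell.

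Adipocyte genes were above 0 in 7 of 7 cases and at least 2-fold higher in 5, beside 5.82% of all genes. Their median was 1.498, and 1.35 in the deleted pair. Adiponectin, Adipoq, read 11.15 in vitro and 8.63 in vivo in the controls, and 11.04 and 9.33 in the deleted pair. The fatty acid carrier Fabp4 read 11.79 against 9.91 and the regulator Pparg 7.84 against 6.47. These 3 rose. The lipid droplet protein Plin4 (8.77 against 7.27) and resistin, Retn (7.85 against 6.35), did not pass, with limma adjusted p = 0.064 and 0.108.

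Lipid synthesis genes leaned the other way in the control pair. Of 18 cholesterol genes 17 were below 0 and 4 at least 2-fold lower, where 4.54% of all genes were. Their median was -0.56, while it was 0.32 in the deleted pair. Lss, lanosterol synthase, read 8.87 against 10.28, and Dhcr7, the last enzyme of the pathway, 8.26 against 9.62 in the controls and 8.66 against 8.50 in the deleted pair. None of the 18 passed the limma threshold. Fatty acid synthesis had a median of -0.59, with 9 of 12 genes below 0, and 0.11 in the deleted pair. Acly, which makes cytosolic acetyl-CoA, read 10.13 against 11.46, then 10.58 against 10.53. For Dhcr7 and Acly the in vivo control was the highest of the 4 arrays.

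Glycolysis and hypoxia genes were below 0 in 15 of 18 cases and at least 2-fold lower in 5, beside 4.54% of all genes. Their median was -0.54, and -0.97 in the deleted pair. Besides Slc16a3, the mitophagy receptor Bnip3 (8.54 against 10.21) and the pyruvate dehydrogenase kinase Pdk1 (6.80 against 8.12) fell. The glucose transporter Slc2a1 (8.50 against 9.63) and the phosphofructokinase Pfkl (9.59 against 10.81) were lower with limma adjusted p = 0.055 and 0.058. Adm, adrenomedullin, went against the list and rose, 11.80 against 10.14. The respiratory chain and ATP synthase list, 75 genes, had a median of 0.10 and no gene 2-fold different, beside 10.4% of all genes. Among 44 cytosolic ribosomal protein genes the median was 0.01, again with no gene 2-fold different.

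Mitosis genes were below 0 in 23 of 23 cases, where 49.5% of all genes were above 0. They were lower by less than 2-fold in 20 cases and by at least 2-fold in 3, beside 4.54% of all genes. The median was -0.50. In the deleted pair their median was -1.54. Kif20a, a kinesin of cytokinesis, read 6.69 against 8.07 and fell, and it was the only one of the 23 to pass. The kinase Plk1 read 7.44 against 8.57, and cyclin Ccnb2 7.56 against 8.65 (limma adjusted p = 0.068 and 0.058). Cdk1 and Mki67 differed by -0.81 and -0.25. DNA replication genes, by contrast, had a median of -0.04 in the control pair and -0.81 in the deleted pair. Of the 23 analysed only the thymidine kinase Tk1 was 2-fold different, at 7.80 against 8.83, beside 10.4% of all genes. The CDK inhibitors and p53 targets had a median of 0.26. The BH3-only protein Pmaip1, or Noxa, rose, 6.52 against 4.27.

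**Figure D5:**
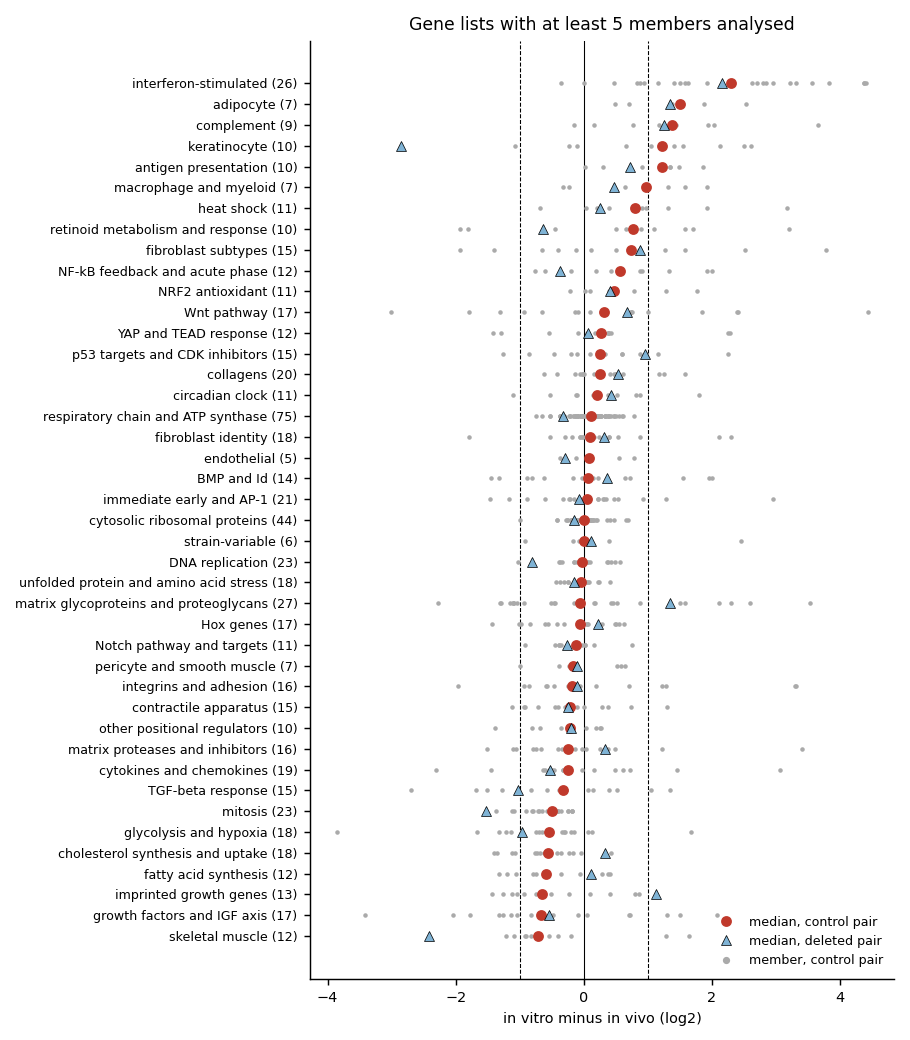
Gene lists with at least 5 genes analysed (number in brackets), ordered by the median in vitro minus in vivo difference (log2) of the control pair; grey points are members, red circles and blue triangles the medians of the control and the deleted pair, dashed lines 2-fold. Interferon-stimulated genes are at the top (medians 2.29 and 2.16), and keratinocyte (1.23 and -2.85) and imprinted growth genes (-0.65 and 1.13) have medians of opposite sign.

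Matrix genes differed in both directions. Among 27 glycoproteins and proteoglycans 6 were higher and 8 lower by 2-fold or more, beside 5.82% and 4.54% of all genes. Their median was -0.05 in the control pair and 1.35 in the deleted pair. Tenascin X, Tnxb, which organizes collagen fibrils, read 8.55 against 5.02 in the controls and 8.03 against 4.91 in the deleted pair, and rose. Dermatopontin, Dpt (12.62 against 10.33), and lumican, Lum (12.11 against 10.001), rose, while the related proteoglycan fibromodulin, Fmod (6.94 against 9.22), and tenascin C, Tnc (10.63 against 11.94), fell. Elastin, Eln, read 11.26, 8.67, 11.16 and 5.87 on the in vitro control, in vivo control, in vitro deleted and in vivo deleted arrays (limma adjusted p = 0.051).

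Of 20 collagen genes 3 were at least 2-fold higher, beside 5.82% of all genes, and none lower, and the median was 0.25. Col15a1, a collagen of basement membrane zones, rose, 9.45 against 7.87. The fibrillar chain Col5a3 (10.43 against 9.18) and Col18a1 of basement membranes (10.19 against 9.02) did not pass, with limma adjusted p = 0.335 and 0.064. The integrin chains Itga8 (7.95 against 4.64) and Itga4 (8.19 against 4.89) rose, and both in vitro arrays were above both in vivo arrays. N-cadherin, Cdh2, was lower, 6.91 against 8.88 (limma adjusted p = 0.054). The collagen-degrading protease Ctsk, cathepsin K, rose, 11.20 against 9.97. Contractile genes had a median of -0.22. Smooth muscle actin, Acta2, read 12.65 against 13.05 and calponin, Cnn1, 7.12 against 8.25 (limma adjusted p = 0.308 and 0.051).

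Signalling ligands and their targets split in both directions. In the TGF-beta list, 4 of 15 genes passed 2-fold downwards and 2 upwards, beside 4.54% and 5.82% of all genes. The list median was -0.33, and -1.03 in the deleted pair. The secreted target Tgfbi (8.88 against 11.58, 7.91 against 10.76 in the deleted pair) and the latent TGF-beta binding protein family member Ltbp2 (8.43 against 10.11) fell. The ligands Tgfb1 and Tgfb3 were lower by 2-fold or more in the controls, at -1.28 and -1.51, and Tgfb2 was higher, at 1.05, none of the 3 passing.

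In the BMP list the ligands Bmp6 (7.52 against 5.52) and Bmp4 (7.24 against 5.69) rose, and of their targets Id4 rose (10.71 against 8.76) and Id3 fell (8.03 against 9.48). In the Wnt list Rspo3 (8.68 against 6.28) rose like Rspo2, as did the feedback inhibitor Nkd1 (8.03 against 5.65), whose probe sets ranged from 0.04 to 2.38. Wnt4 fell, 5.88 against 7.67. Axin2, a widely used Wnt target, differed by 0.74 and did not pass (limma adjusted p = 0.126).

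Growth factors and the IGF axis had a median of -0.68. By 2-fold or more 7 of 17 genes were lower and 3 higher, beside 4.54% and 5.82% of all genes. Pdgfc (6.90 against 8.95) and midkine, Mdk (7.10 against 8.88), fell, and the IGF carrier Igfbp2 rose, 11.19 against 9.12. Igf2 read 11.15 against 12.42 in the controls and 11.48 against 11.39 in the deleted pair. Imprinted growth genes had a median of -0.65, and the amino acid transporter Slc38a4 was the only one of 13 to pass; it fell, 6.88 against 8.31. Their median in the deleted pair was 1.13.

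Genes that mark fibroblast subsets or their place in the body differed singly. Dpp4, or CD26, which marks a progenitor subset, rose (7.74 against 5.23), as did the guidance molecule Ntn1 (10.07 against 8.81). Crabp1, a retinoic acid binding protein, fell, 9.17 against 11.10, and so did Plac8 (9.36 against 10.77). In retinoid metabolism the enzyme Aldh1a1 rose, 7.25 against 4.04, and Crabp2 fell, 5.15 against 6.96. Of 17 Hox genes, which record position along the body axis, 2 were at least 2-fold lower, beside 4.54% of all genes. They were Hoxa5 (5.55 against 6.97, which fell) and Hoxb2 (7.02 against 8.03, limma adjusted p = 0.067). The median of the 17 was -0.06.

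Stress genes completed the lists. The inducible HSP70 genes Hspa1a (8.23 against 5.06) and Hspa1b (10.29 against 8.36) rose, although their sequences are nearly identical and their signals cannot be assigned to one or the other. The small heat shock protein Cryab rose too, 10.36 against 9.04. The list median was 0.80 in the control pair, 0.25 in the deleted pair and 0.33 in the control pair when genes took their probe sets' median. The quinone reductase Nqo1, a target of NRF2, rose, 6.61 against 4.85. Among immediate early genes Atf3 rose, 8.39 against 5.44, with 8.57 against 5.59 in the deleted pair, whereas Fos was lower, 8.22 against 9.38 (limma adjusted p = 0.209). The unfolded protein response list, 18 genes, held no gene 2-fold different, beside 10.4% of all genes, with a median of -0.05. Finally Hlf, a transcription factor with clock-controlled expression, rose, 6.67 against 4.88.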

How the data were processed

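Values of 45101 probe sets on 4 mouse expression arrays, 1 a group, were the authors' deposited log2 signals, between 2.87 and 13.79. The background correction, normalization and software behind them are not given in the sources used here, and no detection calls were used. The platform's annotation gave the names: 34958 probe sets had 1 gene symbol, 932 several and 9211 none, and 34754 matched RefSeq (GRCm38.p6) by gene ID. Signals were quantile normalized over the 4 arrays with limma 3.58.1 in R 4.3.3. A gene with several probe sets took the one brightest on average, and genes at or above the 40th percentile of the 4-array mean were analysed (10916).

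The difference between 2 arrays has no test. The limma fit, with terms for system and deletion, used lmFit and eBayes (residual degrees of freedom 1, prior degrees of freedom 3.69, prior SD 0.23) with Benjamini-Hochberg adjustment at 0.05. It was also run on simulated data with additive effects and equal noise, which does not cover deletion effects that differ between systems. With no replicates, its residual is the disagreement between the control and the deleted difference of a gene, moderated by a prior taken over all genes. Its standard errors and p-values rest on that disagreement and do not measure a spread between replicates.

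Genes were named by rule: the 15 a direction with the largest control difference, the 12 a direction with the largest smaller difference of both pairs, the 6 a direction different in the control pair alone (probe sets sharing a direction, clone names skipped), Rbpj, and from each list the 4 members furthest from 0 and any cell type marker. Genes that differ 2-fold in opposite directions, and other list members used to describe a pathway (such as Mki67, Stat2 or Axin2), were added after the values were seen. The comparison and the lists were chosen with earlier results of these data known. Promoter windows are from RefSeq's table of 250 bases before to 50 after each gene start; motifs were searched on both strands. Alternatives were the values as deposited, loess, an offset, other filters, other probe set choices, other fold thresholds, other limma settings and, added after seeing the data, removal of the trend with gene length in 20 bins.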

Additional observations from a re-analysis of the deposited data

Results flagged for a closer look

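Some genes, and the median of the keratinocyte list, differed at least 2-fold in opposite directions in the control and the deleted pair. With 1 array a side the difference between the pairs was not tested. Each value below is the control difference minus the deleted difference on the log2 scale, in vitro minus in vivo.

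Epithelial genes were among them: Krt14 at 6.63, Krt17 at 5.40, Krt5 at 5.27, desmoplakin Dsp at 5.16, the laminin chain Lamb3 at 4.10, Perp at 3.91 and collagen XVII, Col17a1, at 3.29. The median of the keratinocyte list gave 4.07. Each of these genes was highest on the in vivo deleted array, such as Krt17 at 8.81 beside 4.71 on the in vivo control and 6.27 on the in vitro control. The protease inhibitor Tfpi2 gave 3.35 and the phospholipase Pla2g7 2.18.

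In the other direction the matrix genes Abi3bp (-4.12), Aspn (-3.08) and Mfap4 (-2.98) differed, with the secreted protein C1qtnf3 (-3.42), the receptor Epha3 (-3.001), the imprinted regulator Plagl1 (-2.17) and the clones 6820431F20Rik (-3.28) and 2610005L07Rik (-2.44). Abi3bp read 8.37 and 9.66 on the in vitro and in vivo controls and 8.50 and 5.68 on the deleted arrays, so the in vivo deleted array was the low one.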

How the results depend on the processing

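The counts of genes moved with the thresholds. With the filter at the 60th percentile, 305 genes were higher and 278 lower in the control pair, and 217 and 154 in both pairs. At 1.5-fold the same counts were 1549, 1557, 1040 and 989, and at 3-fold 257, 105, 179 and 57. Genes that rose and fell by limma numbered 64 and 21 when genes took their probe sets' median, 0 and 0 with no filter (5426 genes at an unadjusted p under 0.05, beside 3135 in the reported fit), 178 and 57 with the offset and 468 and 355 with a trended prior variance; 72 fell with the values as deposited. The cause was not tested. Of 163 named genes at least 2-fold different in the control pair, 150 of 163 remained so with the values as deposited, 162 with loess, 154 with the offset, 159 with the length trend removed and 127 of 152 by their probe sets' median.

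Over all genes at least 2-fold different in the control pair, 594 of 635 higher and 459 of 496 lower ones kept their sign on the deleted arrays. The 163 named genes were partly chosen by their values in the deleted pair, which bears on the next counts. On the deleted arrays 100 of the 163 were 2-fold different in the same direction and 36 were of opposite sign. Opposite in sign there were Abi3bp at 2.82, C1qtnf3 2.29, 6820431F20Rik 1.98, Aspn 1.98, Mfap4 1.94, Epha3 1.65, Plagl1 1.13, 2610005L07Rik 1.10, Rian 0.88, Nsdhl 0.54, Mvd 0.23, Dhcr7 0.15, Igf2 0.091, Clca3a1 0.080, Acly 0.051 and ND5 0.047, and Krt14 at -4.13, Krt17 -3.84, Krt5 -3.14, Dsp -2.56, Perp -2.51, Lamb3 -2.50, Col17a1 -1.996, Tfpi2 -1.55, Pla2g7 -1.08, Cfb -0.82, Hp -0.75, Crim1 -0.72, Itga6 -0.41, Myh8 -0.38, Mmp3 -0.35, Gclc -0.32, Psmb8 -0.22, Rbp4 -0.19, Col5a3 -0.053 and Gch1 -0.013. Among lists whose control median was further from 0 than 0.34, the median SD over probe sets of a gene, medians of opposite sign there were keratinocyte -2.85, retinoid -0.64, NF-kB -0.38, fatty acid 0.11, cholesterol 0.32 and imprinted 1.13. Lists nearer to 0 also changed sign there, such as matrix glycoproteins, from -0.05 to 1.35, and matrix proteases, from -0.24 to 0.33. Elsewhere 2610005L07Rik was 0.18 with the median of its probe sets, and Srf -0.22 without probe sets marked as shared between transcripts.

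No paired analysis was possible because each group has 1 array and the labels give no replicate numbers. Signals near the level cutoff limit the folds of dim genes, and no array can be left out of a difference between 2 arrays.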

Other observations

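Ifi202b, a p200 family gene that mouse strains are known to express unequally, read 4.41 on the in vitro control, 4.02 on the in vivo control, 4.08 on the in vitro deleted and 8.89 on the in vivo deleted array. The mitochondrial transhydrogenase Nnt, also known to vary between C57BL/6 substrains, read 8.37, 9.29, 8.80 and 8.68 in the same order. Substrains are not given in the labels.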
